A study of Mus musculus with 24 samples.

Results

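The WNT ligand family was followed in the mouse mammary gland after injection of progesterone through 10 of its genes, Wnt4, Wnt2, Wnt5a, Wnt5b, Wnt6, Wnt7b, Wnt10a, Wnt10b, Wnt11 and Wnt2b. Each gene was taken by its symbol in the array's annotation and was read from the probe set, of those that name 1 gene only, with the highest mean log2 intensity over the 24 arrays. All 10 genes had such a probe set, among 18193 genes in the table. A probe set was tested when 3 or more arrays read it above their own median, which 7 of the 10 ligands and 12352 of the 18193 genes did. Wnt10a, Wnt10b and Wnt2b lay under the array median on all 24 arrays, so their values are given without a test.

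WNT proteins are secreted, lipid-modified signals that act on neighbouring cells through Frizzled receptors, with LRP5 and LRP6 as coreceptors in the branch that stabilises beta-catenin and with ROR and RYK receptors in other branches. In the mammary gland, progesterone acts on the luminal epithelial cells that carry its receptor, and Wnt4 made by these cells is known as a paracrine signal of the hormone that acts in side branching. Wnt2 has been described mainly in the mammary stroma, whereas Wnt5a and Wnt11 are known chiefly for signalling that does not pass through beta-catenin.

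The animals were nulliparous BALB/c mice, ovariectomized at 6 weeks of age to remove the ovarian source of the hormone and left for 2 weeks. The treated groups were given progesterone once a day under the skin, 1 mg per dose, dissolved in 100 µl of sesame oil, and the control groups were given the oil alone. Glands were taken 4, 16, 28 or 76 h after the first injection, which gives 8 groups of 3 Affymetrix Mouse Genome 430 2.0 arrays, each carrying the pooled RNA of 5 mice, so that 15 mice stand behind a group. Every group, controls included, was ovariectomized and injected. Mice of 28 and 76 h had passed more than 1 daily injection, so that the time since the first dose, the count of doses and the delay after the latest dose cannot be told apart.

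The array medians lay between 62.8 and 70.2 intensity units, and the log2 values of arrays of 1 group correlated across genes with r from 0.966 to 0.993. Progesterone lowered the mRNA of its own receptor, Pgr, from 464 ± 46.6 to 85.5 ± 15.6 at 4 h (intensity, mean ± SD, n = 3 arrays), from 465 ± 107 to 170 ± 19.9 at 16 h and from 426 ± 19.4 to 178 ± 67.2 at 28 h, whereas both groups stood at 279 at 76 h. The log2 differences of Pgr were -2.45, -1.44, -1.33 and 0.00, with limma adjusted p of 2.02e-07, 0.00119, 0.000453 and 0.993. The tissue was whole gland: markers of luminal, basal, fibroblast, fat, endothelial, immune and skeletal muscle cells were all measured, and 1 of the 62 marker genes, Greb1 in the list of hormone-sensing luminal cells, lay under the array median on all 24 arrays.

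Stretches before start sites of the 3 ligands that rose are shown because these genes moved in the same direction. They were copied from the RefSeq promoter table of the C57BL/6J reference genome, build GRCm38.p6, in which 7 of the 10 ligands had an entry, with 10 start sites together. Each line below gives the 250 bases before an annotated start, 5′ to 3′ on the strand of the gene, and then the first transcribed base. Capitals mark that first base and any copy of the hexamer AGAACA, the core of the DNA element that the progesterone receptor binds. The windows lie at chr4:137277385-137277635 on the plus strand for Wnt4, at chr6:18030445-18030695 on the minus strand for Wnt2, and on the minus strand at chr6:119544347-119544597 and chr6:119467211-119467461 for the most upstream and the middle start of Wnt5b; its most downstream start is not printed.
Wnt4: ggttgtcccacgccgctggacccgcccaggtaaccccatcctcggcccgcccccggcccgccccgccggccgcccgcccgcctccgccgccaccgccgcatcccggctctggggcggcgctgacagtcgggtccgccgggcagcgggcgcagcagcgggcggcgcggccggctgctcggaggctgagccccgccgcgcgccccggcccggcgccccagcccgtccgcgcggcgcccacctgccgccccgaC
Wnt2: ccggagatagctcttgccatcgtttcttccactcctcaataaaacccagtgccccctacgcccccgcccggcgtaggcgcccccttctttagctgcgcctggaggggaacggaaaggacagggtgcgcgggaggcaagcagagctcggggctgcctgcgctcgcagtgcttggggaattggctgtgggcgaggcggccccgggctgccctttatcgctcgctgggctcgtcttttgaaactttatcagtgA
Wnt5b, most upstream start: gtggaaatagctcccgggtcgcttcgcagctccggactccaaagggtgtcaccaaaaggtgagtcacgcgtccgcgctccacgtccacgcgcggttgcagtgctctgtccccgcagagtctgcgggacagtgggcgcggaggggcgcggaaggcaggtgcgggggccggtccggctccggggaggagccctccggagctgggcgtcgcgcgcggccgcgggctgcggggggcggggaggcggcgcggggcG
Wnt5b, middle start: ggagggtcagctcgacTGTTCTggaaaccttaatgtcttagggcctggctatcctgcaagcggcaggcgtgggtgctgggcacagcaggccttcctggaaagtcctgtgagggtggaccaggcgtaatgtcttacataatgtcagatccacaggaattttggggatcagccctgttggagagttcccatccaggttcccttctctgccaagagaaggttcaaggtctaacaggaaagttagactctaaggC

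In the 300-base windows of the table, which run from 250 bases before to 50 bases after the start, 84.3% of the bases were G or C for Wnt4, a share above that of 99.8% of the 32851 promoters listed. The share was 65.7% for Wnt2 and 78% for the most upstream start of Wnt5b, against 53% for its middle and 55% for its most downstream start and a median of 52.7% over all promoters. The hexamer, or its reverse complement TGTTCT, was searched on both strands and stood in 1 of the 10 windows, that of the middle start of Wnt5b, where it began 234 bases before the start. It was found in 19% of all promoters. A palindromic form of the element, with inverted arms, a 3-base spacer and 1 free base in each arm, was in none of the 10 windows and in 0.475% of all promoters. Which start the probes of Wnt5b read was not determined.

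Progesterone raised 3 of the 7 tested ligands and lowered none. Wnt4 was higher at 16, 28 and 76 h, Wnt2 at 28 and 76 h, and Wnt5b at 76 h. A gene was called when its progesterone minus oil difference had a limma p, adjusted by Benjamini-Hochberg over all 12352 genes, under 0.05. No ligand was called at 4 h, where 0.186% of all genes were (0.13% as higher). At 16 h 1 of 7 was called against 0.308% of all genes (0.105% as higher), at 28 h 2 of 7 against 2.53% (1.94% as higher), and at 76 h 3 of 7 against 17.8% (11.1% as higher). Over the mean of the 4 times 3 of 7 were called against 12.5%. At 4 and 16 h the progesterone arrays of 2 of the 7 ligands, Wnt4 and Wnt2, stood above all oil arrays of the time, beside 6.12% and 5.37% of all genes. At 28 h those of 3 ligands did, beside 6.8%, and at 76 h those of 4, beside 25.8%. The median log2 difference of the 7 ligands was 0.15, 0.25, 0.39 and 0.34 at 4, 16, 28 and 76 h, beside medians of -0.01, -0.07, 0.00 and 0.02 over all tested genes.

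**Figure D1:**
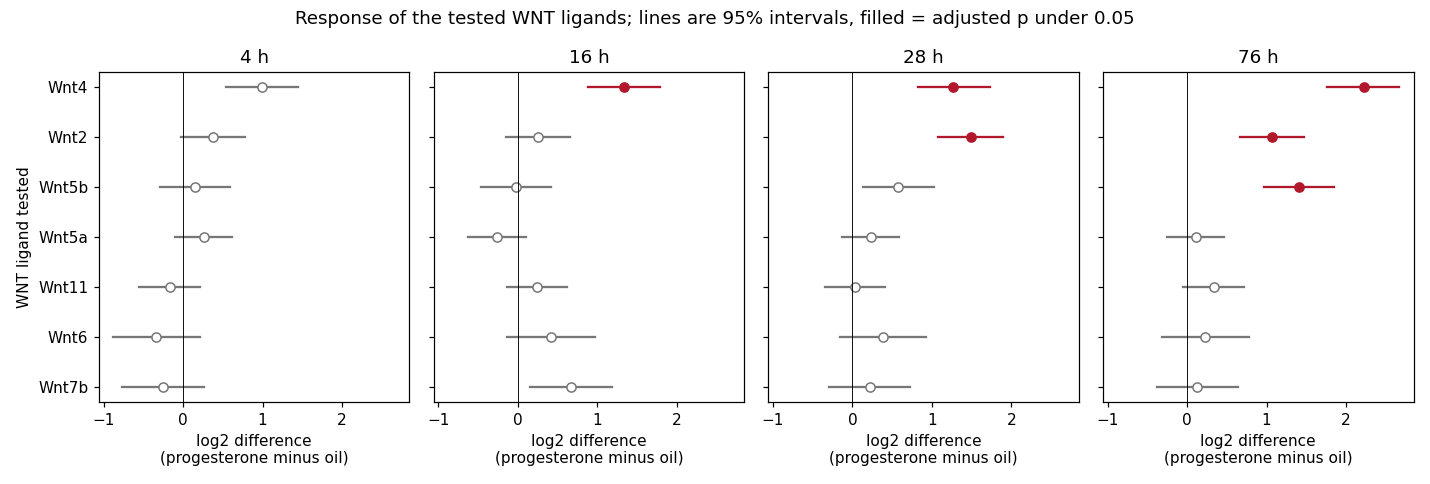
Log2 difference (progesterone minus oil, horizontal axis) of each tested ligand at each time, with 95% intervals from the limma fit and filled symbols for adjusted p under 0.05. Wnt4 lies to the right of 0 at every time and is filled at 16, 28 and 76 h, Wnt2 is filled at 28 and 76 h, and Wnt5b at 76 h.

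Wnt4, the ligand known to act downstream of progesterone in this tissue, was the only one of the 7 called at 3 of the 4 times. In oil it read 66.8, 92 and 77.2 at 4 h, 89.3, 98.2 and 78.9 at 16 h, 90.6, 85 and 103 at 28 h, and 88.9, 46.3 and 71.1 at 76 h. With progesterone it read 159, 168 and 140 at 4 h, 237, 227 and 206 at 16 h, 271, 143 and 289 at 28 h, and 340, 271 and 318 at 76 h. Every progesterone array stood above every oil array of its own time, at all 4 times, and the lowest progesterone array of the study (140) lay above the highest oil array (103). Wnt2 was the other tested ligand of which the first statement holds, and 0.227% of all tested genes were higher without overlap at all 4 times.

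The log2 difference of Wnt4 was 0.99 ± 0.22 at 4 h (SE; 1.99-fold), with an adjusted p of 0.0688, which missed the threshold. It was 1.33 ± 0.22 at 16 h (2.52-fold, limma adjusted p = 0.00484), 1.27 ± 0.22 at 28 h (0.0014) and 2.22 ± 0.22 at 76 h (1.47e-07), and 1.45 ± 0.11 over the mean of the 4 times (6.73e-09). Only 9 of the 12352 genes, 0.0729%, were called higher at 16, 28 and 76 h together. With the oil arrays of the other 3 times as controls, Wnt4 was called at 4 h too, at 0.93 ± 0.18 (adjusted p = 0.00441); 6.51% of all genes were called in that comparison. Leaving out single arrays moved the adjusted p at 4 h between 0.0089 and 0.426 and the difference between 0.88 and 1.11. Wnt4 was called there without progesterone 4 h replicate 3, progesterone 28 h replicate 2 or 3, or oil 76 h replicate 1 or 2. Without progesterone 4 h replicate 3, 468 genes were called at 4 h, against 23 in the reported fit. Without each of the other arrays named, 24 to 30 were.

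The response of Wnt4 was not the same at the 4 times. An F-test of the 4 differences gave an adjusted p of 0.0464, where 10% of all genes were called. The response at 76 h exceeded that at 4 h by 1.22 ± 0.31 (adjusted p = 0.0161). It exceeded those at 16 and 28 h by 0.88 ± 0.31 and 0.94 ± 0.31, which missed the threshold at 0.0703 and 0.0679. The F-test is near its threshold, and it was lost under quantile normalization, without the filter, without the intensity trend and with any of 16 of the 24 arrays left out singly.

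Ordered by mean intensity, Wnt4 stood highest with progesterone at 76 h (310), then at 28 h (234) and 16 h (223), with overlapping arrays between neighbours. The 4 h progesterone group (156) followed, apart from the 16 h progesterone group and from the oil groups below. Of the 28 h progesterone arrays 1 (143) lay within the 4 h range of 140 to 168. The 28 h level did not pass the test against 4 h (0.53 ± 0.22, limma adjusted p = 0.297). The oil groups came last, at 92.9, 88.8, 78.6 and 68.7 for 28, 16, 4 and 76 h, with overlapping arrays. The 4 oil groups did not pass the F-test for a difference between them (adjusted p = 0.31), and among progesterone groups the 76 h level exceeded the 4 h level by 0.99 ± 0.22 on the log2 scale (adjusted p = 0.002).

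A second probe set for Wnt4, dimmer than the first, gave the same calls. Its log2 differences were 0.70, 0.95, 0.82 and 1.53 at 4, 16, 28 and 76 h, with limma adjusted p of 0.0871, 0.00803, 0.00466 and 4.49e-07. Its arrays did not overlap at any of the 4 times. The F-test for unequal responses gave 0.0674 with this probe set.

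One progesterone pool, 28 h replicate 2, read lower than the other arrays of its group for all 3 ligands that rose: 143 for Wnt4, 116 for Wnt2 and 106 for Wnt5b. Its summed luminal markers were 4680 against 8670 and 6690 in the other pools of the group, and its summed skeletal muscle markers 12700 against 30400 and 23700. Without it, the 28 h difference of Wnt4 was 1.59 (adjusted p = 3.51e-05), that of Wnt2 1.67 (2.94e-05) and that of Wnt5b 0.76 (0.0644).

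**Figure D2:**
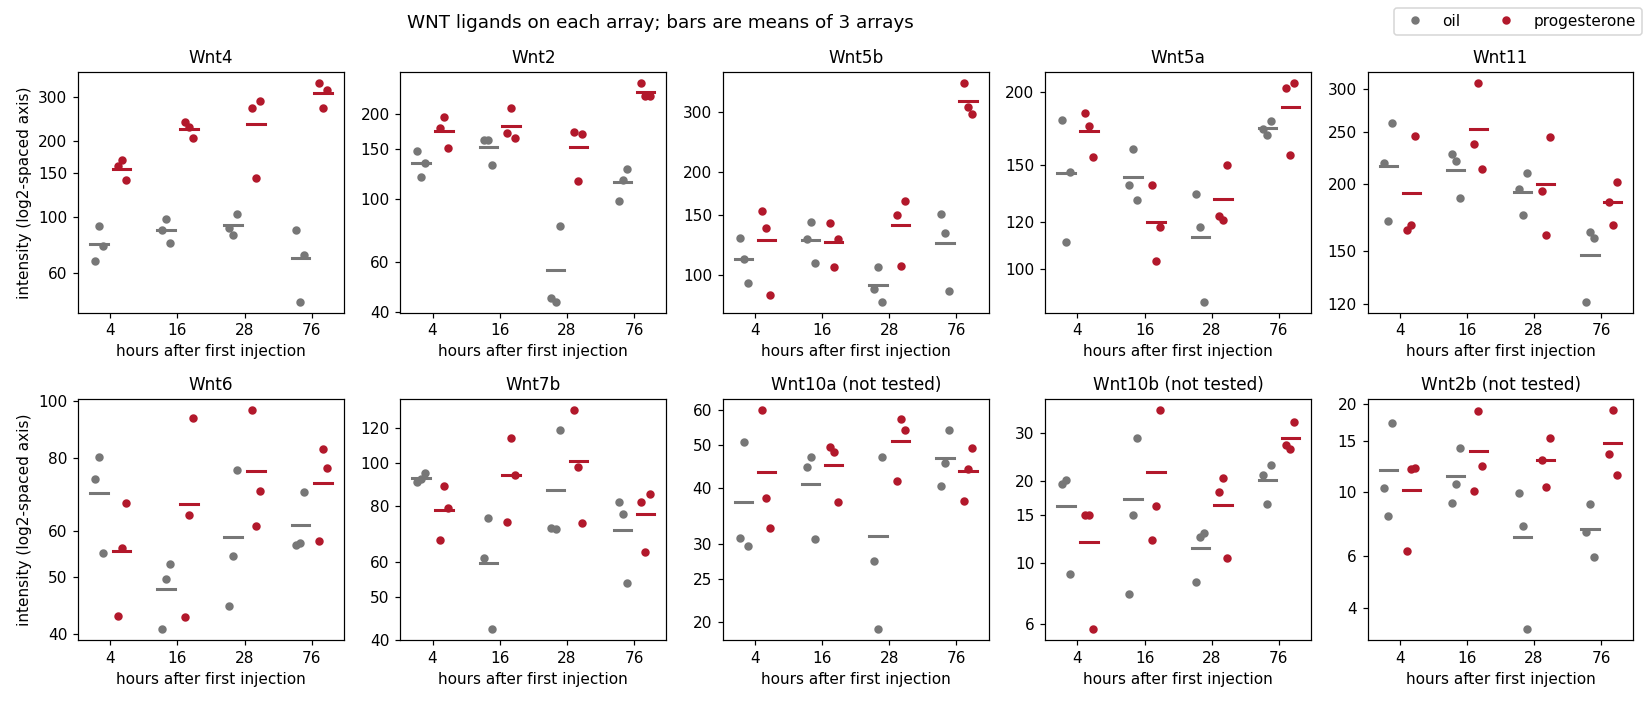
Intensity of each of the 10 ligands on every array (log-spaced vertical axis, separate for each gene) against hours after the first injection, with oil in grey, progesterone in red and bars at the mean of 3 arrays. Wnt4 is separated at all 4 times, Wnt2 drops in oil at 28 h, and Wnt5b rises with progesterone at 76 h.

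Wnt2, a ligand known from mammary stroma, was higher with progesterone at 28 and 76 h. In oil it read 148, 120 and 134 at 4 h, 162, 162 and 132 at 16 h, 44.8, 43.4 and 80.1 at 28 h, and 98, 117 and 128 at 76 h. With progesterone it read 178, 194 and 151 at 4 h, 171, 209 and 164 at 16 h, 173, 116 and 169 at 28 h, and 257, 230 and 230 at 76 h. The progesterone arrays stood above the oil arrays at each time, by a narrow gap at 4 and 16 h, and the 28 h oil arrays were lower than all other arrays of the study. Wnt2 is read by 1 probe set.

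The log2 difference of Wnt2 was 0.37 ± 0.20 at 4 h (limma adjusted p = 0.439) and 0.25 ± 0.20 at 16 h (0.485), then 1.49 ± 0.20 at 28 h (5.92e-05) and 1.07 ± 0.20 at 76 h (0.000342). The 4 responses differed (F-test, adjusted p = 0.00916), although none of the 6 pairwise differences between times was called on its own; the nearest to the threshold were 1.23 ± 0.28 between 28 and 16 h (0.0589) and 0.82 ± 0.28 between 76 and 16 h (0.0577).

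The controls of Wnt2 moved. The 4 oil groups differed with an F-test adjusted p of 7.91e-05, where 12.2% of all genes were called, and the 28 h oil arrays lay 1.29 log2 units below the other oil arrays (-1.29 ± 0.16, adjusted p = 8.07e-06). In that comparison of 28 h oil with other oil, 7.6% of all genes were called. Set against the oil arrays of 4, 16 and 76 h, Wnt2 at 28 h with progesterone differed by 0.19 (95% interval -0.14 to 0.52, adjusted p = 0.612), so the call at that time rests on its own controls. Against the same kind of control, the difference was 0.83 ± 0.16 at 4 h (0.00421), 0.95 ± 0.16 at 16 h (0.00261) and 1.22 ± 0.16 at 76 h (3.19e-06); these controls include the low 28 h oil arrays. The share of all genes called was 4.53% at 16 h, 0.874% at 28 h and 32.6% at 76 h.

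The 76 h level of Wnt2 with progesterone stood above every other group. Its mean of 239 was followed by 181, 174 and 153 for progesterone at 16, 4 and 28 h and by 152, 134 and 114 for oil at 16, 4 and 76 h, each overlapping its neighbour, and oil at 28 h was last at 56.1 without overlap. Between progesterone groups, 76 h exceeded 28 h by 0.67 ± 0.20 on the log2 scale (adjusted p = 0.0179).

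Markers of fibroblasts, and in part those of macrophages, moved with Wnt2 in the same arrays. Those of skeletal muscle shared a low level with it in oil at 28 h but did not follow it at 76 h. In oil at 28 h against the other oil arrays, 8 of 8 fibroblast markers (list median -0.51) and 4 of 6 macrophage markers (-0.44) were called lower. So were 2 of 7 skeletal muscle markers (-0.98) and 2 of 6 endothelial markers (-0.14), beside 6.1% of all genes. The summed intensity of 8 fibroblast markers was 33200 to 39300 in the 28 h oil arrays, 45600 to 54100 in the other oil arrays, 42100 to 48900 with progesterone at 28 h and 52900 to 56600 with progesterone at 76 h. At 28 h 5 of 8 were called higher, with a list median of 0.38 against 0.00 over all genes, among them the matrix proteins Lum at 0.89 ± 0.14 (adjusted p = 0.000407) and Fbln1 at 1.11 ± 0.24 (0.0082). Against the other oil arrays these 2 genes differed at 28 h by -0.02 and -0.07. At 76 h 4 of 8 were called higher, with a median of 0.17. Summed skeletal muscle markers were 9800 to 15400 in the 28 h oil arrays, 26200 to 30700 in those of 4 h and 25700 to 44300 in those of 16 h. At 76 h they were 7350 to 26700 in oil and 10000 to 18100 with progesterone, where Wnt2 was highest. Of these markers 0 of 7 were called between progesterone and oil at any time. Summed macrophage markers were 10500 to 12900 in the 28 h oil arrays, 13100 to 15700 in the other oil arrays and 11700 to 13700 with progesterone at 28 h, where 1 of 6 was called higher. The part of these tissues in the values of Wnt2 was not tested, and in whole tissue fewer cells of a type and less RNA per cell cannot be told apart.

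**Figure D3:**
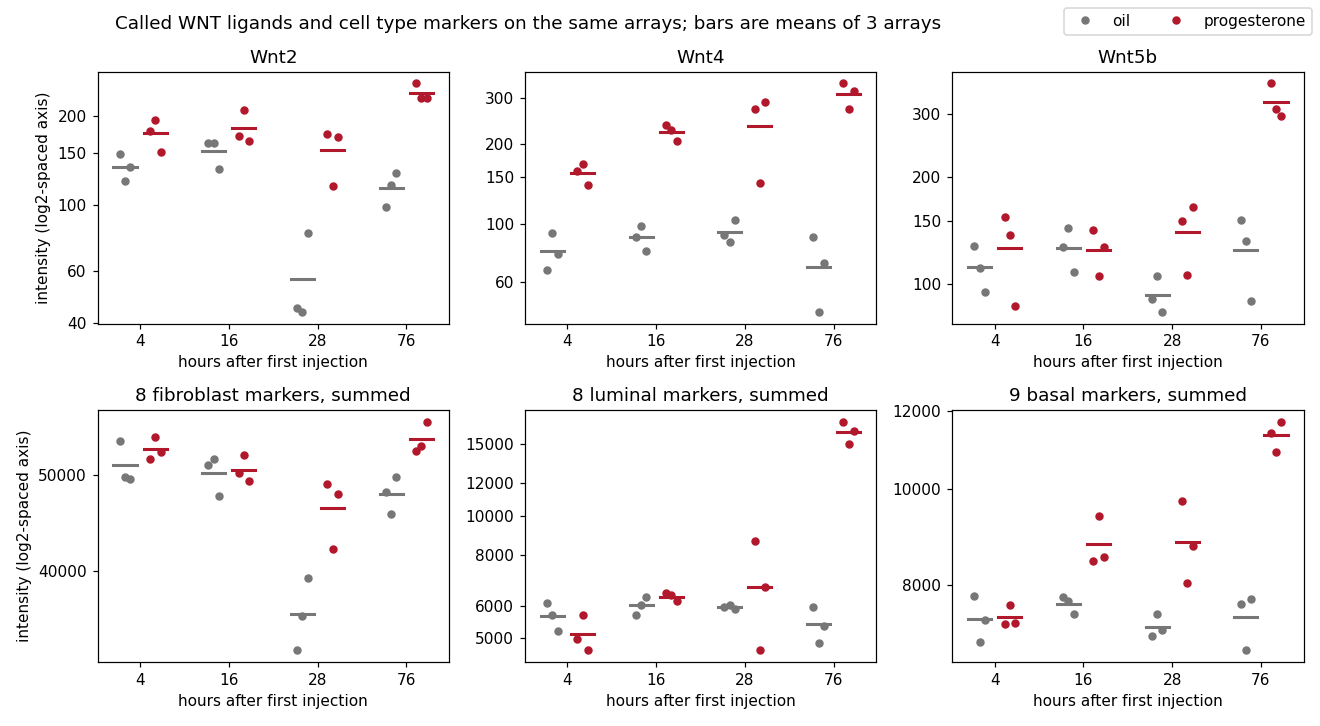
The 3 ligands that rose (upper row) above summed intensities of cell type markers on the same arrays (lower row), on log-spaced vertical axes, with oil in grey, progesterone in red and bars at the mean of 3 arrays. Wnt2 and the fibroblast markers are both lowest in oil at 28 h, and the luminal and basal sums, like Wnt5b, stand highest with progesterone at 76 h.

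Wnt5b, a ligand of the same subfamily as Wnt5a, changed at 76 h. In oil it read 128, 111 and 94.6 at 4 h, 127, 143 and 108 at 16 h, 90.5, 105 and 83.3 at 28 h, and 151, 132 and 89.5 at 76 h. With progesterone it read 154, 137 and 86.9 at 4 h, 142, 105 and 127 at 16 h, 150, 106 and 164 at 28 h, and 365, 310 and 295 at 76 h. The groups overlapped at 4 and 16 h, were separated by a narrow gap at 28 h, and at 76 h every progesterone array was above all 21 other arrays of the study.

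The log2 difference of Wnt5b was 0.15 ± 0.21, -0.02 ± 0.21 and 0.57 ± 0.21 at 4, 16 and 28 h, none of them called (limma adjusted p = 0.836, 0.97 and 0.202), and 1.41 ± 0.21 at 76 h (2.66-fold, 4.07e-05). The responses differed between times (F-test, adjusted p = 0.00917). The response at 76 h exceeded that at 4 h by 1.26 ± 0.30 (0.0106; 8.04% of all genes called) and that at 16 h by 1.43 ± 0.30 (0.00275; 11.1%), and its excess of 0.84 ± 0.30 over 28 h missed the threshold (0.1; 7.64%). Within the progesterone groups, the 76 h level lay above those of 4, 16 and 28 h by 1.39, 1.38 and 1.23, with adjusted p of 4.6e-05, 5.88e-05 and 0.000237, in comparisons that called 24.9%, 23.4% and 20.7% of all genes. The oil groups did not pass the test for a difference between them (adjusted p = 0.356).

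The probe set of Wnt5b is of a kind whose probes may also match other transcripts. The other probe set of Wnt5b lay above the array median on 1 of 24 arrays; with it the difference at 76 h was 1.42 ± 0.52 and missed the threshold (limma adjusted p = 0.0629), and that at 28 h was 1.42 ± 0.52 (0.195). On that dimmer set the oil arrays read 27.6, 21.9 and 18.9 at 76 h and the progesterone arrays 57.7, 44.6 and 84.7, without overlap.

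At 76 h markers of epithelium rose with the ligands. All 8 luminal markers were called, their median being 1.61 and their summed intensity 15000 to 17000 with progesterone against 4880 to 5980 in oil. Of the basal markers 7 of 9 were called, also as higher, their median being 1.03 and their sums 10900 to 11700 against 6880 to 7750. The keratin Krt8 rose by 1.90 ± 0.16 (adjusted p = 1.46e-08) and Trp63, the transcription factor of basal cells, by 2.65 ± 0.24 (3.17e-08). The log2 differences of Wnt4 (2.22), Wnt5b (1.41) and Wnt2 (1.07) at 76 h therefore stand beside luminal marker differences from 1.27 to 2.07, and the part of the larger epithelial signal in them was not tested.

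At earlier times these markers moved less. At 4 h none of the 8 luminal and none of the 9 basal markers was called and their sums overlapped between groups, while Wnt4 read 1.98-fold higher without overlap. At 16 h 0 of 8 luminal markers were called, and their sums were 6160 to 6460 with progesterone against 5720 to 6330 in oil. Basal markers were called for 3 of 9, as higher, and summed to 8460 to 9390 against 7490 to 7790. The called basal markers were Krt17 at 2.11 ± 0.40, Krt5 at 0.70 ± 0.15 and Acta2, smooth muscle actin, at 0.29 ± 0.06 (limma adjusted p = 0.0167, 0.0491 and 0.0491). Krt17 read 26.9 ± 7.11 in oil at 16 h, under the array medians, and 115 ± 19 with progesterone (SD, n = 3). It may have passed the filter through its progesterone groups, and it is among the basal markers called at 16, 28 and 76 h. At 28 h 0 of 8 luminal and 3 of 9 basal markers were called. In the list of hormone-sensing luminal cells, of which 4 of 8 markers were tested, Pgr alone was called at 4 and 16 h, as lower, and Pgr and Cited1 at 28 h, as lower; at 76 h Foxa1 and Cited1 were called as higher. Prlr, Areg and Ly6a of that list were not analysed here.

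Among the other cell types, called lower at 76 h were 3 of 6 lymphocyte markers (list median -0.50), 3 of 6 endothelial markers (-0.37) and 2 of 7 fat cell markers (-0.17). These counts stand beside 6.7% of all genes called lower. Of the macrophage markers 1 of 6, Cd14, was called higher, beside 11.1% of all genes.

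The other 4 tested ligands were not called at any time. Wnt5a, a ligand known for signalling without beta-catenin, read 169 to 178 in oil and 156 to 207 with progesterone at 76 h. Its lowest levels were in the 28 h oil arrays (88 to 134) and the 16 h progesterone arrays (103 to 139). Its log2 differences were 0.26 ± 0.17, -0.26 ± 0.17, 0.23 ± 0.17 and 0.11 ± 0.17 at 4, 16, 28 and 76 h (limma adjusted p = 0.573, 0.419, 0.698 and 0.722). The 95% interval at 76 h, -0.25 to 0.47, leaves out a doubling. The progesterone level at 76 h exceeded those at 16 and 28 h by 0.65 ± 0.17 (0.0091) and 0.52 ± 0.17 (0.0363), and it exceeded the oil arrays of 4, 16 and 28 h by 0.51 ± 0.14 (0.00749), whereas it overlapped the oil arrays of its own time. Of the other 3 probe sets of Wnt5a, which gave no call, the one above the array median on 11 arrays had all its 16 h progesterone arrays (44.3 to 52.9) below the oil arrays (66.2 to 79.4) and all its 76 h progesterone arrays (98.1 to 116) above them (74.3 to 88.8), with log2 differences of -0.61 (adjusted p = 0.176) and 0.39 (0.222).

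Wnt11, likewise known for signalling without beta-catenin, read 168 to 202 with progesterone and 121 to 163 in oil at 76 h. These arrays did not overlap, as for 25.8% of all genes at that time, and the log2 difference of 0.34 ± 0.18 was not called (limma adjusted p = 0.233). At 4, 16 and 28 h the groups overlapped, with log2 differences of -0.17, 0.24 and 0.03. With oil arrays from 4, 16 and 28 h as controls the 76 h difference turned to -0.16, since the 76 h oil group (148) was the lowest of the 8 groups.

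Wnt6, a ligand of surface epithelium, lay above the array median on 10 of 24 arrays, and its groups overlapped at every time. Its log2 differences were -0.34 ± 0.26, 0.42 ± 0.26, 0.39 ± 0.26 and 0.23 ± 0.26. With progesterone it read 42.8, 63.9 and 93.7 at 16 h, a wider spread than that of the 8 group means, 47.7 to 76. A dimmer second probe set, under the array median on all arrays, differed by -0.26, -0.50, -0.31 and 0.16, so the direction at 16 and 28 h was not the same on both.

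Wnt7b, a ligand made by epithelia, gave different results on its pair of probe sets, both designed on the same transcript sequence. On the brighter one it read 90.9, 92.4 and 95.4 in oil and 67.2, 89.1 and 79.2 with progesterone at 4 h, where all progesterone arrays were below oil, as for 12.8% of all genes. At 76 h it read 81.7, 76.7 and 53.7 in oil and 81.9, 63.2 and 85.5 with progesterone, which overlap. The log2 differences were -0.25, 0.67, 0.22 and 0.13 with SE 0.25, none of them called (limma adjusted p = 0.735, 0.196, 0.86 and 0.779). At 16 h the difference was called without progesterone 16 h replicate 1, at 0.84 (0.0434). Without that array 1839 genes were called at 16 h, against 38 in the reported fit.

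On the dimmer probe set Wnt7b was higher with progesterone. It read 23.9, 31.4 and 17.3 in oil and 49.5, 45.3 and 47.8 with progesterone at 16 h, then 16.5, 17.6 and 31.9 against 50.9, 34.6 and 64.3 at 28 h and 16.1, 26.7 and 18.8 against 72.5, 50.5 and 58.4 at 76 h. The groups did not overlap at these 3 times, while they overlapped at 4 h. The log2 differences were 0.39 ± 0.31, 1.01 ± 0.31, 1.2 ± 0.31 and 1.57 ± 0.31, with limma adjusted p of 0.652, 0.159, 0.0387 and 0.000859 when this set stood for the gene. It lay above the array median on 1 of 24 arrays, so its values are dim and may lie close to background, and it did not pass the filter. Which of the probe sets reads Wnt7b mRNA better was not tested.

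**Figure D4:**
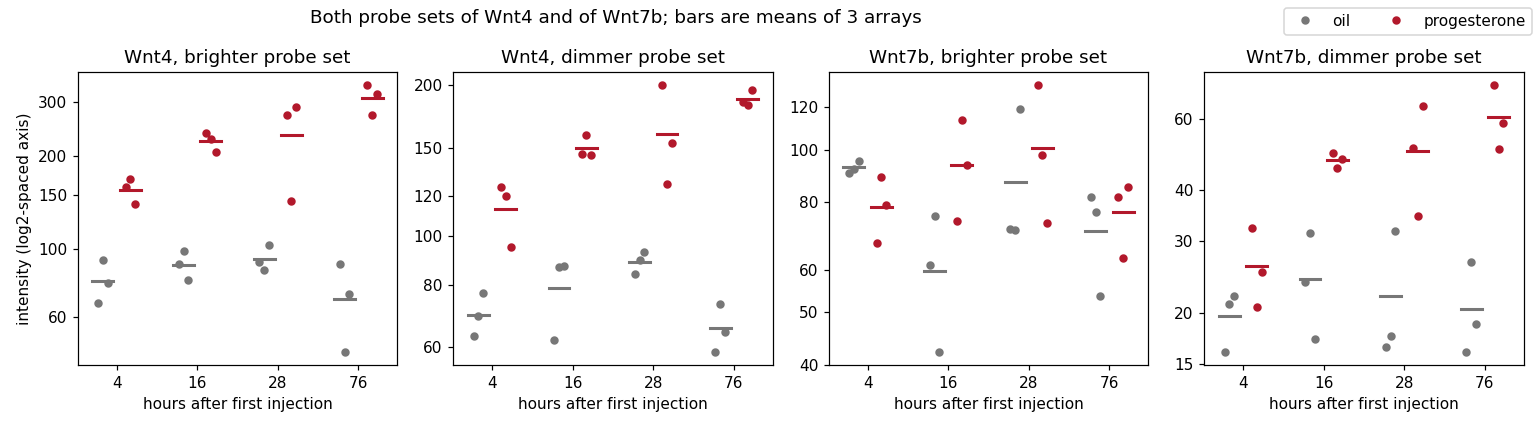
Intensity on every array for the brighter and the dimmer probe set of Wnt4 and of Wnt7b (log-spaced vertical axes, separate for each), with oil in grey, progesterone in red and bars at the mean of 3 arrays. The sets of Wnt4 separate the groups alike, whereas for Wnt7b only the dimmer set separates them at 16, 28 and 76 h.

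The 3 ligands under the filter were dim and may lie close to background. Wnt10a, known from skin appendages, ranged from 19.3 to 59.9 over all arrays, with groups that overlapped at every time and log2 differences of 0.22, 0.16, 0.79 and -0.10 at 4, 16, 28 and 76 h. Wnt10b, an early ligand of the embryonic mammary bud, ranged from 5.74 to 36.3. At 76 h it read 27, 26.2 and 32.9 with progesterone and 21, 16.5 and 22.8 in oil, without overlap (log2 difference 0.52, 95% interval -0.43 to 1.47). Wnt2b, the closest relative of Wnt2, ranged from 3.38 to 19.1 with 4 arrays at or below the floor of 7.38. At 76 h it read 13.5, 19.1 and 11.4 with progesterone and 7.25, 9.06 and 5.98 in oil, without overlap, as at 28 h. Its log2 differences were -0.15, 0.26, 0.63 and 0.86. The differences of Wnt2b at 4, 28 and 76 h, where arrays were raised to the floor, are understated by it, and none of the 3 ligands was tested.

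The genes whose log2 values went most alike with each ligand over the 24 arrays were named by Pearson's r, as a description of these arrays, which share their treatment groups and tissue makeup. For Wnt4 these were Arg2, an arginase (r = 0.935), Tceal9 (0.926) and Enho (0.912), and Arg2 read 72.8 in oil and 412 with progesterone at 76 h. For Wnt2 they were the collagens Col6a3 (0.944) and Col5a2 (0.927) and the platelet chemokine Pf4 (0.939). For Wnt5b they were Armcx4 (0.946), Galnt18 (0.943) and the WNT receptor Fzd7 (0.943), which read 368 in oil and 729 with progesterone at 76 h. The likest genes reached r = 0.879 for Wnt5a (Mfsd9), 0.853 for Wnt11 (Arf1), 0.746 for Wnt7b (Gpaa1) and 0.688 for Wnt6 (Bmp7).

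The rest of the pathway was followed in lists of 79 genes, 58 of which were tested. None of the 58 was called at 4 or 16 h, 6 were called higher at 28 h, beside 1.94% of all genes, and 23 at 76 h, beside 11.1%, and none was called lower at any time. Over the mean of the 4 times 19 of the 58 were called higher, beside 5.83% of all genes. The list median was 0.28 at 76 h against 0.02 over all genes, and 0.14 at 28 h against 0.00. Of 9 further ligands 3 were tested, Wnt3a, Wnt7a and Wnt9a. None was called at any of the 4 times, with differences from -0.32 to 0.74, and 1 of the 3 was called higher over their mean.

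Both secretion genes rose at 76 h. Porcn, the enzyme that attaches the lipid to WNT proteins, went from 148 ± 7.62 to 321 ± 43.7 (SD, n = 3), a log2 difference of 1.11 ± 0.16 (limma adjusted p = 1.74e-05). Wls, which carries WNT proteins to the cell surface, went from 796 ± 32.5 to 1230 ± 31.8 (0.63 ± 0.10, 7.2e-05). Porcn was called at 28 h as well, at 0.70 ± 0.16 (0.0128), and at 0.47 against the other oil arrays it missed the threshold (0.0909).

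Among receptors 5 of 14 rose at 76 h. Ror1, a receptor of WNT5-type ligands, went from 74.3 ± 5.54 to 166 ± 18.1 (1.16 ± 0.14, limma adjusted p = 3.1e-06). The Frizzled receptors Fzd7 (0.99), Fzd2 (0.98), Fzd6 (0.81) and Fzd1 (0.60) were called too. At 28 h Fzd1 (0.48, 0.0142) and the receptor Ryk (0.44, 0.0459) were called, and compared with the other oil arrays Ryk differed by 0.11 (0.646).

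The R-spondin list gave the largest difference of the pathway. Rspo1, a secreted protein that keeps Frizzled receptors at the cell surface, went from 29.7 ± 6.23 to 338 ± 22.9 at 76 h, a log2 difference of 3.52 ± 0.24 (limma adjusted p = 7.04e-10). All 4 tested genes of the list were called higher at that time, the others being the R-spondin receptors Lgr6 (0.55) and Lgr4 (0.48) and Znrf3 (0.49), which removes Frizzled receptors. Rspo2, Rspo3, Rspo4, Lgr5 and Rnf43 did not pass the filter.

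Inhibitors of the pathway, most of them secreted, rose in part, 5 of 10 at 76 h. Among them were Wif1, which binds WNT proteins, at 1.38 ± 0.18 (limma adjusted p = 4.14e-06), Sostdc1 at 1.17 ± 0.18, Dkk3 at 0.82 ± 0.21 and Sfrp1 at 0.71 ± 0.21. The other was Kremen1, which is not secreted, at 0.33 ± 0.09 (0.0139). At 28 h Sfrp2 and Sfrp4, secreted proteins that bind WNT ligands, were called at 1.07 ± 0.15 (0.000184) and 0.82 ± 0.15 (0.00229). As with Wnt2, these calls rest on the oil arrays of that time, since Sfrp2 and Sfrp4 differed from the other oil arrays by -0.40 and -0.25.

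Of 15 further components, most of them intracellular, 2 were called higher at 76 h, a share near that of all genes (11.1%). They were Prickle1, a planar polarity protein, at 0.91 ± 0.15 and the kinase Csnk1a1 at 0.28 ± 0.06 (limma adjusted p = 8.7e-05 and 0.00109). Genes known as transcriptional targets were called higher for 5 of 10 at 76 h. Ccn4, a matricellular protein, rose by 1.61 ± 0.28 and the cyclin Ccnd1 by 1.29 ± 0.11 (0.000235 and 2.76e-08), and Nkd2 and Myc rose by 0.97 and 0.96. Ccn4 went from 29.4 ± 6.47 in oil to 89 ± 14.1 with progesterone (SD, n = 3). Like Rspo1 it was dim in oil and may have passed the filter through that progesterone group. Ccnd1 was called at 28 h too, at 0.57 ± 0.11 (0.00455). Axin2, the most widely used target of the beta-catenin branch, differed by 0.25, 0.42, 0.34 and 0.28 at the 4 times. It was not called at any single time (limma adjusted p from 0.076 to 0.307). Lef1 differed by -0.32 at 76 h (0.104). Over the mean of the 4 times 5 of the 10 targets were called higher, Axin2 among them, beside 5.83% of all genes.

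**Figure D5:**
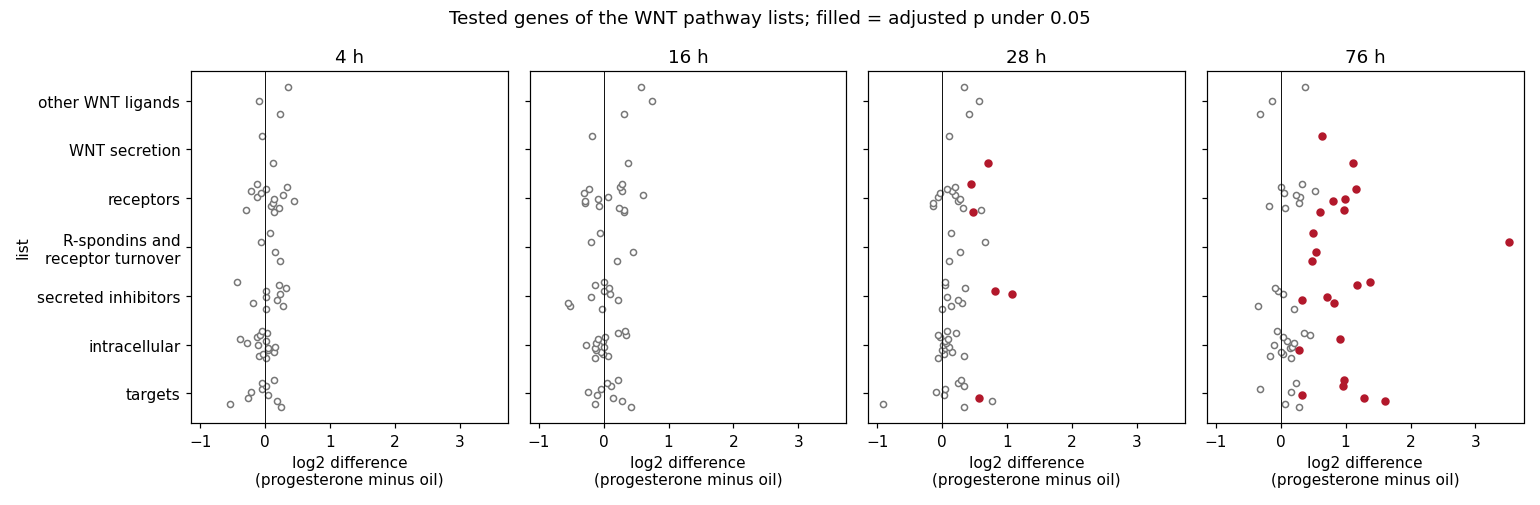
Log2 difference (progesterone minus oil) of the 58 tested pathway genes by list at each time, filled red for adjusted p under 0.05. No gene is filled at 4 and 16 h, 6 are at 28 h, and the 23 filled genes at 76 h all lie to the right of 0, with Rspo1 at 3.52.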

How the data were processed

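The deposited values are intensity readings on a linear scale, 24 arrays by 45101 probe sets. Total RNA was extracted with Trizol and labelled with biotin in one cycle, per the labels' protocols. How probes were summarized and how arrays were scaled is not given in the sources used here. Gene symbols came from a 2016 annotation of the platform, and the 64 control probe sets were left out.

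Lower values were raised to 7.38, the 10th percentile over all arrays, before taking log2. All 24 arrays were fitted in R 4.3.3 by limma 3.58.1, with statmod 1.5.0, using 1 mean per group, an intensity trend in the variance and 16 residual degrees of freedom. Tests are two-sided, and p-values were adjusted by Benjamini-Hochberg over 12352 genes. Intensities carry the SD of 3 arrays and log2 differences the SE of the fit. The p-values measure the spread between pools of 5 mice, and the number of arrays limits the precision. The calls at 76 h and those of the F-test of unequal responses were tested on simulated data, with changes placed in the 76 h progesterone group. The calls of the other comparisons were not tested in this way. Readings below an array's median are called dim here, and how far they stand above background was not measured.

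Named are the 10 ligands, Pgr, up to 4 called genes per pathway list and time, and the 3 genes most like each tested ligand. Markers, Fzd1 and Kremen1 at 76 h were chosen after their values were seen. So were Axin2, Lef1, Wnt3a, Wnt7a and Wnt9a, which were not called at any single time. The ligands and all lists were chosen with earlier results of these data known. Same-numbered arrays of a time deviated together with r from -0.018 to 0.346, over 0.1 in 6 of 12 pairs. The labels name them only as biological replicates, so numbers were not taken as pairs, and pairing within a time was not tested. Alternatives covered the filter, floor, normalization, probe sets, variance model, controls, threshold and each array left out.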

Additional observations from a re-analysis of the deposited data

Results flagged for a closer look

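The response to progesterone differed between the 4 times for 3 ligands by limma's F-test of the differences themselves. The adjusted p was 0.00916 for Wnt2, 0.00917 for Wnt5b and 0.0464 for Wnt4. The call of Wnt4 is near the threshold and was lost with any of 16 arrays left out singly. For Wnt2 the oil groups themselves differed (F-test, adjusted p = 7.91e-05), so its unequal responses depend on its controls. Wnt5b was called at 76 h alone, Wnt4 had its largest difference at 76 h, and Wnt2 had differences at 28 and 76 h that no single pair of times separates from the others.

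A second probe set of Wnt7b, which the comparisons did not use because it lay above the array median on 1 of 24 arrays, was higher with progesterone than in oil by 1.2 at 28 h and by 1.57 at 76 h on the log2 scale. The brighter probe set of the same gene differed by 0.22 and 0.13.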

How the results depend on the processing

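With 3 arrays per group, the count of called ligands at 76 h was 3 or 4 under every alternative run. The 28 h count stayed at 2 under all but 2 of them. At 28 h the oil arrays of the other times gave 1 call in place of 2, and probe sets averaged per gene gave 3. The 4 h count of 0 became 1 with probe sets averaged per gene or an adjusted p under 0.10, 2 with the other oil arrays and 3 with array weights, and 0 to 1 with single arrays left out. The 16 h count of 1 became 2 with the other oil arrays, 7 with array weights, and 1 to 2 with arrays left out. The count of unequal responses went from 3 to 7 with array weights and was 2 to 3 with arrays left out. Its lowest value under the other settings was 2. Wnt4 lost that call without the filter, under quantile normalization, without the intensity trend and at an adjusted p under 0.01. The count of ligands differing among oil groups went from 1 to 2 under quantile normalization or an adjusted p under 0.10, to 4 with array weights, and was 1 to 2 with arrays left out. Array weights ranged from 0.216 to 5.5 and called 7332 genes at 16 h, against 38 in the reported fit. A replicate block, which fits an effect per replicate number across all times, changed no count. With it Wnt4 at 4 h kept 0.99 with a limma adjusted p of 0.0636. The mean over times kept 3 to 4 calls.

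Reversed directions concerned differences that were not called. With other probe sets, Wnt5a gave -0.20 at 4 h and 0.14 and 0.24 at 16 h, Wnt5b -0.02 at 4 h, Wnt6 -0.50 at 16 h and -0.31 at 28 h, and Wnt7b 0.39 at 4 h. With the mean of probe sets, Wnt6 gave -0.04 at 16 h and Wnt7b 0.07 at 4 h. With the other oil arrays, Wnt5a gave -0.22 at 28 h, Wnt5b 0.20 at 16 h, Wnt7b 0.16 at 4 h and -0.01 at 76 h, and Wnt11 0.06 at 4 h and -0.16 at 76 h. Array weights gave -0.03 for Wnt7b at 76 h, and median centring 0.00 for Wnt11 at 28 h. With single arrays left out, Wnt5b ranged from -0.02 to 0.40 at 4 h and from -0.13 to 0.10 at 16 h, Wnt7b from -0.06 to 0.27 at 76 h, and Wnt11 from -0.13 to 0.17 at 28 h. The cause was not tested.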
